A study of Mus musculus with 2 samples.

Results

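The TGF-β family receptors were read in bone marrow-derived macrophages (BMDMs) that were untreated or treated with interleukin-4 (IL-4) for 18 h. The receptors were the 10 genes Acvr1, Acvr1b, Acvrl1, Bmpr1a, Tgfbr1, Acvr2a, Acvr2b, Bmpr2, Tgfbr2 and Tgfbr3. Their 14 probes, of 39429 probes for genes on the array, were taken through the RefSeq accession that the scanner output gives for each probe, and 20656 genes were named in this way. BMDMs are macrophages grown from bone marrow cells in M-CSF, and IL-4 is a Th2 cytokine that drives them toward the M2-like state. According to the methods of the study, the marrow donors were male mice aged 8 weeks with the genotype Crif1 f/f, a floxed Crif1 gene. No Cre is named for these samples, and both conditions share this allele. The dose of IL-4 on the arrays and the number of mice behind each RNA sample are not given in the sources used here. Each condition was measured on 1 single-colour Agilent array, and both arrays lay on 1 slide. No test between conditions was therefore possible, and the values describe these 2 RNA samples.

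Ligands of the TGF-β family, which include TGF-β, activins, BMPs and GDFs, bind a complex of type II and type I receptors, both of which are serine/threonine kinases. The type II receptor phosphorylates the type I receptor, also called an activin receptor-like kinase (ALK), which then phosphorylates SMAD proteins that move to the nucleus. In macrophages TGF-β is known for restraining inflammatory gene expression, and the study turned to these receptors because GDF15 had been reported to act through the type II receptor TGF-β RII.

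All 10 receptor genes were well above background on both arrays, and none differed 2-fold between them. Counts and shares over all genes also include array targets without a gene name, each taken as a gene, 32448 in all. Of these, 19743 were detected above background in either condition, and 2.86% of them were past 2-fold higher and 4.47% lower. Among the 17242 genes measured on both arrays, as all receptors were, the shares were 2.11% and 1.57%. A count of 0 among 10 genes thus lay near the background and is no finding about the receptors. Signal was higher after IL-4 for 5 receptors and lower for 5, with a median log2 difference of -0.01. The median of these 17242 genes was also -0.01. The receptors farthest from 0 were Tgfbr1, 1.34-fold higher, and Acvr2b, 1.55-fold lower, while the other 8 lay within 0.25 of 0 on the log2 scale, as did 65.1% of all genes. Differences are IL-4 minus untreated throughout, in log2 of the background-subtracted intensity after subtraction of each array's 75th percentile.

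Because replicate arrays were lacking, each difference was set beside a pair of technical errors. The scanner software estimates an error for each spot, which was about 10% of the intensity for bright spots and gave an error of 0.20 for a log2 difference. The SD between spots of probes printed in 10 spots, over probes of similar signal, lay between 0.048 and 0.26 for the receptor probes. Neither covers the spread between cultures or mice.

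**Figure D1:**
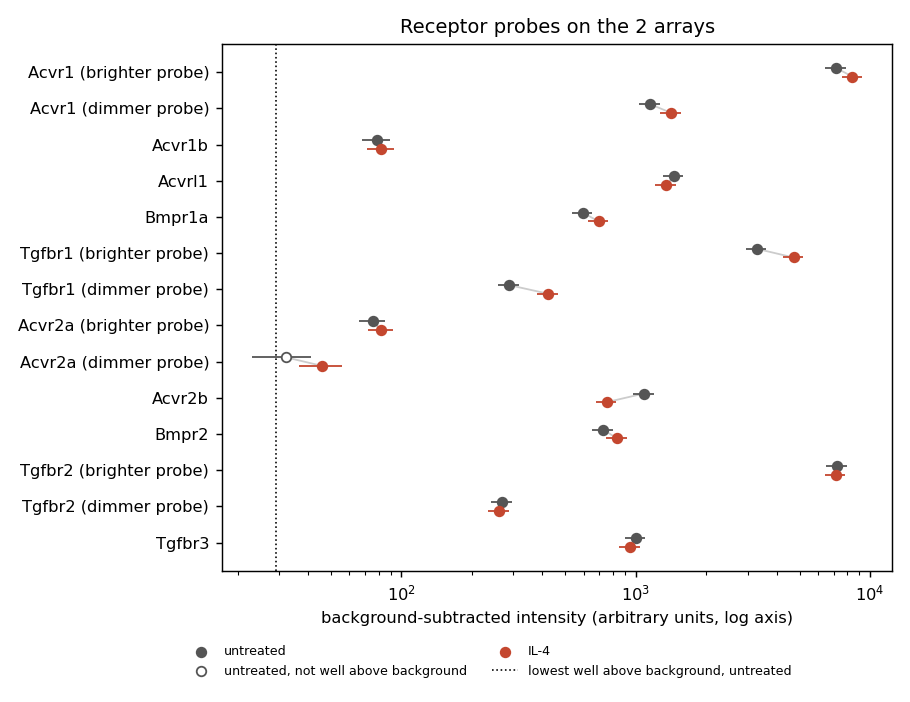
Background-subtracted intensity of the 14 receptor probes without (grey) and with (red) IL-4, on a log axis, with bars for the error estimated by the scanner software. The open point, the dimmer Acvr2a probe at 32.2, was not well above background, and the dotted line marks the lowest intensity well above background on the untreated array, 29.2. Levels of different probes cannot be compared with each other.

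Tgfbr1 encodes ALK5, the type I receptor for TGF-β. Its brighter probe had an intensity of 3283 without and 4712 with IL-4, and its dimmer probe 286.8 and 421.1. Both probes were thus higher on the IL-4 array, with log2 differences of 0.42 and 0.45, about 2.07 and 2.18 times the error estimated by the software. The SD between spots was 0.053 for 62 probes of similar signal to the brighter one. The gap of 0.033 between both Tgfbr1 probes was smaller than the median gap of 0.12 among the 2763 genes with 2 probes measured on both arrays. Of all genes measured on both arrays, 92.6% had a lower difference than Tgfbr1, and 17.9% differed at least as much in either direction. With normexp background correction of the raw pixel intensity the difference of Tgfbr1 was 0.29, and with scaling on spike-in controls, which moved the median of all genes up by 0.32, it was 0.74.

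Acvr2b encodes a type II receptor that binds activins, myostatin and related ligands. Its only probe had an intensity of 1084.6 without and 750.5 with IL-4. The log2 difference of -0.63 was 3.08 times the error estimated by the software, the largest such ratio among the 14 probes, and the SD between spots was 0.060 for 72 probes of similar signal. Only 4.83% of genes measured on both arrays had a lower difference, and 9.09% differed at least as much in either direction. At 1.5-fold instead of 2-fold Acvr2b was the 1 receptor of 10 counted as lower, and 0 were counted as higher. Of genes measured on both arrays, as Acvr2b was, 5.6% were lower and 4.68% higher by this fold, and with genes on a bound included the shares were 11% and 6.11%. With scaling on spike-in controls its difference was -0.31.

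**Figure D2:**
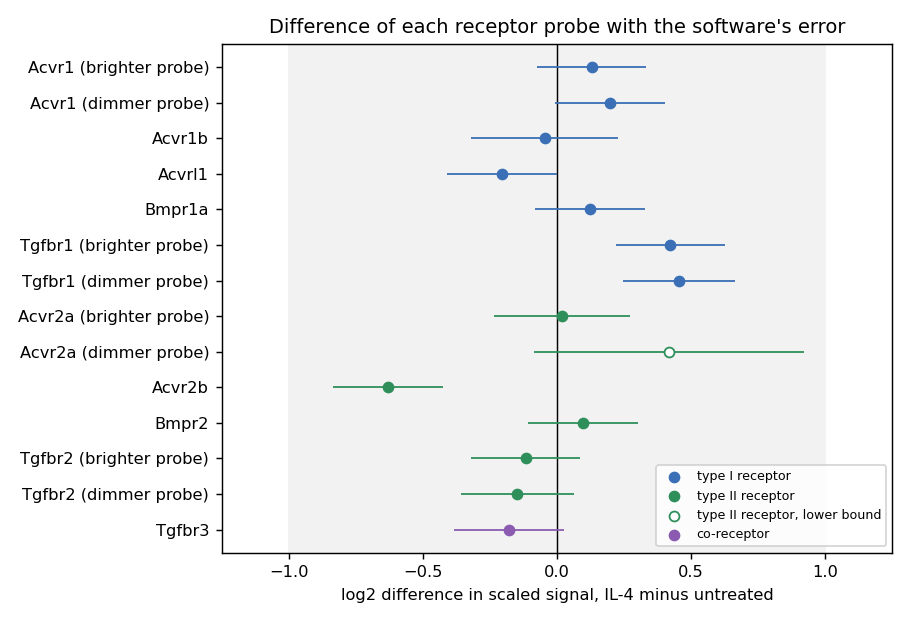
Log2 difference in scaled signal, IL-4 minus untreated, for the 14 receptor probes, coloured by receptor type, with bars for the error estimated by the scanner software. Grey shading spans less than 2-fold. The open point, labelled a lower bound, is the measured difference of a probe not well above background on the untreated array. Both Tgfbr1 probes (0.42 and 0.45) and the Acvr2b probe (-0.63) lie farther from 0 than their bars reach.

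The DNA before the start sites of Tgfbr1 and Acvr2b is shown because these were the receptors with the largest difference in each direction. The sequences are RefSeq sequences of GRCm38.p6, 250 bases up to the start site, at chr4:47352972-47353221 on the plus strand for Tgfbr1 and chr9:119401928-119402177 on the plus strand for Acvr2b. Capitals mark CAGAC, the core letters bound by SMAD proteins, on either strand.

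Tgfbr1: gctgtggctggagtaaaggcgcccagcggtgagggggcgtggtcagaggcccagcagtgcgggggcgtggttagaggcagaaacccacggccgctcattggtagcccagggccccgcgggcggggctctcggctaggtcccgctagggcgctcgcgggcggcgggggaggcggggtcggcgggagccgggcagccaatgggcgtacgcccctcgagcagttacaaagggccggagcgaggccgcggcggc

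Acvr2b: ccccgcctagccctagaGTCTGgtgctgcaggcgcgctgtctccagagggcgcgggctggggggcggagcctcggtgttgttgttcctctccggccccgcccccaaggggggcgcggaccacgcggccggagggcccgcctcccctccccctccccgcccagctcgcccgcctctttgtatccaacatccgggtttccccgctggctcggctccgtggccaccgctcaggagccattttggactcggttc

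The window of Acvr2b held these letters once, starting 233 bases before the start site, as GTCTG on the strand shown, and this Tgfbr1 window did not hold them. Another annotated start of Tgfbr1 held CAGAC 203 bases before it. In windows of 300 bases that run 50 bases past the start site, which RefSeq gave for 8 of the 10 receptors, 4 of 9 windows held CAGAC on either strand, those of Tgfbr1, Acvr2a, Acvr2b and Tgfbr2, against 49.6% of 32851 windows of all genes. The palindrome of TTC and GAA with 4 bases between them, the letters bound by STAT6, which IL-4 activates, was in 0 of 9 receptor windows and in 6.95% of all windows. The receptor windows were rich in G and C, with a median of 74.7% against 52.7% of all windows, and held a median of 34 CpG dinucleotides against 7. For the start of Tgfbr1 shown, G and C made up 74.7% and for Acvr2b 73.3%. These letter matches are descriptions of the sequence and not measurements of binding.

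The other type I receptors differed less between the arrays. Acvr1 encodes ALK2, a receptor for BMPs and activins. Its brighter probe had an intensity of 7163 without and 8390.4 with IL-4, and its dimmer probe 1149.8 and 1413. The log2 differences of 0.13 and 0.20 did not exceed the error of 0.20 estimated by the software for each. Bmpr1a encodes ALK3, a BMP receptor, and had an intensity of 593.9 and 693.5 and a difference of 0.12. Acvrl1 encodes ALK1, best known as a receptor for BMP9 and BMP10 in endothelial cells, and had an intensity of 1452 untreated and 1348 after IL-4. Its difference of -0.21 was 1.01 times the error. Acvr1b encodes ALK4, the activin and nodal receptor, and had an intensity of 78.9 untreated and 81.9 after IL-4. The difference of -0.05 had an error of 0.27. For these 4 receptors the difference was therefore at most 1.01 times the error estimated by the software.

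The remaining ALK receptors were read for comparison. Bmpr1b (ALK6) and Acvr1c (ALK7) had 2 probes each, and none of these was well above background on either array, so no fold is given for them. The same held for Amhr2, the type II receptor for anti-Müllerian hormone. ALK1 to ALK5 were thus well above background in both conditions and ALK6 and ALK7 in neither. The ALK4 probe was dim, at 78.9 untreated and 81.9 after IL-4. By real-time PCR, a measure unlike the array flag, the study reports ALK1, ALK2 and ALK5 in BMDMs. The software sets this flag for each spot, so it is not a single intensity limit. The brighter probe of Bmpr1b read 7.78 without and 30.7 with IL-4 and that of Acvr1c 32.0 and 8.60.

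Among type II receptors, Tgfbr2, which encodes the TGF-β RII that binds TGF-β, had an intensity of 7217 without and 7127 with IL-4 at its brighter probe and 269.0 and 260.2 at its dimmer probe. The log2 differences of -0.12 and -0.15 lay within the errors of 0.20 and 0.21. Thus both probes of this type II receptor, through which GDF15 had been reported to act, read slightly lower after IL-4. The size was less than the technical error. From an inhibitor experiment the study concluded that GDF15 signals through the type I receptors ALK4, ALK5 and ALK7. Of these, Tgfbr1 (ALK5) was at 0.42, Acvr1b (ALK4) was at -0.05, and Acvr1c (ALK7) was not well above background. Bmpr2, the type II receptor of BMPs, had an intensity of 726.5 and 831.9 and a difference of 0.10. Acvr2a, the closest relative of Acvr2b and also an activin receptor, had an intensity of 75.5 untreated and 81.9 after IL-4 at its brighter probe, a difference of 0.02 with an error of 0.25. Its dimmer probe passed the background flag with IL-4 only, with an intensity of 32.2 and 46.1, and its measured signal was 1.34-fold higher. This log2 difference of 0.42 lay within the error of 0.50 of that probe.

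Tgfbr3 encodes betaglycan, a co-receptor without kinase activity that presents TGF-β2 and inhibin to the signalling receptors. Its intensity was 999.1 without and 945.3 with IL-4, and the difference of -0.18 lay within the error of 0.20. By receptor type, 3 of 5 type I receptors and 2 of 4 type II receptors had a higher signal after IL-4, with medians of 0.12 and -0.05.

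**Figure D3:**
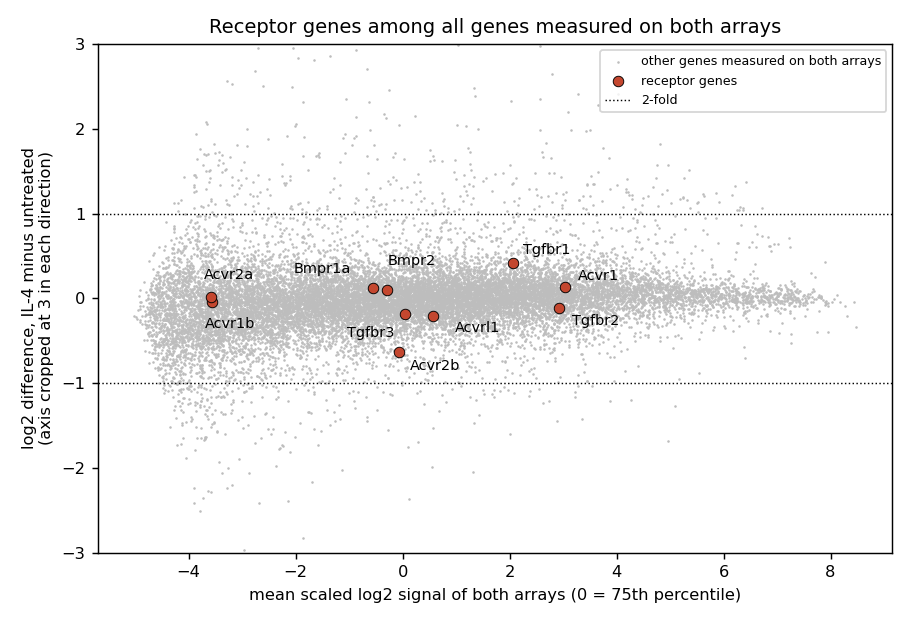
Log2 difference, IL-4 minus untreated, against the mean scaled log2 signal of both arrays for the 17242 genes measured on both (grey) and the 10 receptor genes (red), with dotted lines at 2-fold. The vertical axis is cropped. The receptors lie between -0.63 (Acvr2b) and 0.42 (Tgfbr1), inside the lines.

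The sign of the small differences depended on how the arrays were scaled. Tgfbr1, Acvr1, Bmpr1a and Bmpr2 were higher after IL-4 and Acvr2b was lower in each of the 14 settings tried, including the one reported. Several settings could hardly change these values, but the same held within the 8 scaling and background settings alone. Acvr1b, Acvrl1, Acvr2a, Tgfbr2 and Tgfbr3 changed sign in at least 1 setting. Scaling on the median of all probes moved the median of all genes up by 0.21, and scaling on 7 bright spike-in controls moved it up by 0.32. Relative to the median of all genes, Tgfbr1 lay between 0.38 and 0.44 and Acvr2b between -0.62 and -0.62 under the 7 scalings of the scanner intensity. Acvrl1, Tgfbr2 and Tgfbr3 lay below the median of all genes under each of these scalings, between -0.22 and -0.10, and Acvr1, Bmpr1a, Bmpr2 and Acvr2a above it, between 0.033 and 0.22.

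**Figure D4:**
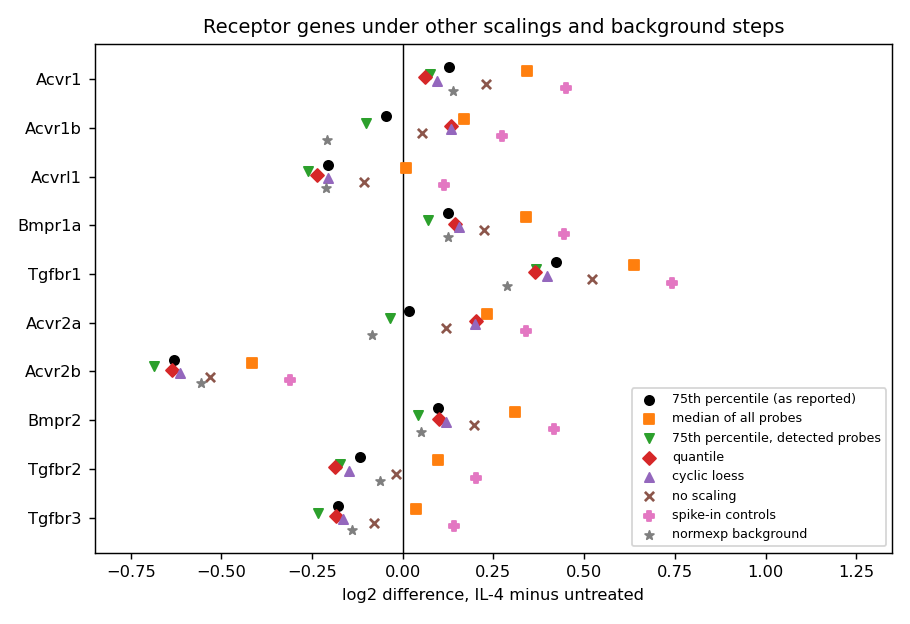
Log2 difference, IL-4 minus untreated, of the 10 receptor genes under the reported scaling (black circles), 6 other scalings and normexp background correction. Tgfbr1 ranges from 0.29 to 0.74 and Acvr2b from -0.69 to -0.31, while Acvrl1, Tgfbr2 and Tgfbr3 lie on both sides of 0.

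The genes that work with the receptors were read from lists of the pathway. Co-receptors, decoys and proteins that hold latent TGF-β at the cell surface were well above background on both arrays for 5 of 8 genes and on neither for 3, the decoy receptor Bambi and the BMP co-receptors Rgmb and Hjv. None differed 2-fold. Nrros, which anchors latent TGF-β1 on macrophages and microglia, had an intensity of 16618 untreated and 26980.4 after IL-4, a 1.52-fold higher signal with a log2 difference of 0.60 and an error of 0.20. Lrrc32 (GARP), which anchors latent TGF-β on regulatory T cells, had a difference of -0.20, and Eng (endoglin), a co-receptor that works with ALK1, had one of -0.22. The BMP co-receptor Rgma had a difference of -0.37 and the nodal co-receptor Tdgf1 one of 0.13, the latter from 1 of its 3 probes. With spike-in scaling Lrrc32 was at 0.12 and Eng at 0.10, and the other 3 kept their sign under each scaling and with normexp.

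All 8 SMAD genes were well above background on both arrays and none differed 2-fold, with a median of -0.01. Smad3, which carries signals from ALK4, ALK5 and ALK7, had an intensity of 2673 without and 1781 with IL-4, a 1.61-fold lower signal. Its log2 difference of -0.69 had an error of 0.20 and ranged from -0.74 to -0.37 over the scalings and normexp, and its other probe gave no signal well above background. Smad2, the other SMAD of these receptors, had a difference of 0.11. Smad6, an inhibitory SMAD of the BMP branch, had an intensity of 1043 and 816.6 and a difference of -0.45, and Smad7, the inhibitory SMAD of the TGF-β branch, had one of 0.06. The common partner Smad4 had a difference of -0.02, and the BMP-branch Smad1, Smad5 and Smad9 had differences of -0.21, 0.18 and -0.01.

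None of the 15 regulators of receptors and SMADs differed 2-fold at the brightest probe, and their median was -0.06. The ubiquitin ligase Nedd4l was at -0.50 there, and its dimmer probe, detected without IL-4 only, had a bound of -1.52. The lowest was the ubiquitin ligase Wwp1 at -0.62 and the highest the SMAD repressor Ski at 0.56, which were named after their values were seen. Ski, with an intensity of 72.5 untreated and 114.8 after IL-4, was at 0.02 in the setting that moved it most. None of 10 target genes of the pathway differed 2-fold by the reported scaling, with a median of 0.05. Klf10, an early TGF-β target named after its value was seen, was nearest to it with an intensity of 2015 and 4037, a log2 difference of 0.90 and an error of 0.20. It ranged from 0.85 to 1.22 over the settings, past 2-fold with the scalings on the median and on spike-in controls and without scaling. Among the other targets, 2 of the inhibitors of differentiation went opposite ways, Id2 at 0.39 and Id3 at -0.44, and Id1 was at 0.03.

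**Figure D5:**
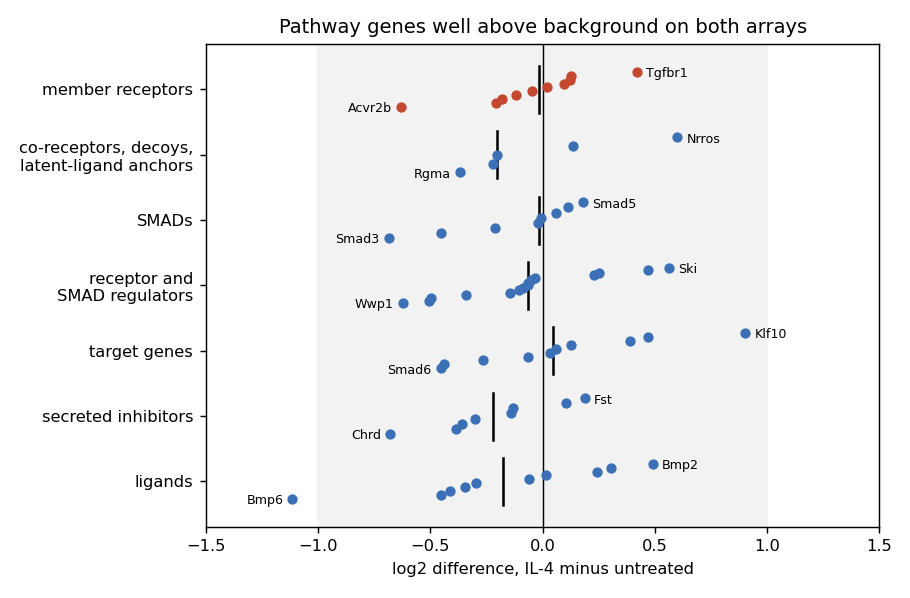
Log2 difference, IL-4 minus untreated, of pathway genes well above background on both arrays, by list, with vertical bars at the median and grey shading for less than 2-fold. The gene with the lowest and the highest difference of each list is named, and the receptors span -0.63 to 0.42 around a median of -0.01.

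The arrays hold RNA of whole cultures, so fewer cells of a type and less RNA per cell cannot be told apart, and markers of other cells that carry these receptors were read. The methods of the study report high purity of its BMDMs by flow cytometry for CD11b and F4/80. Purity is not given separately for the cultures behind these 2 arrays. Of 6 macrophage markers 5 were matched, and all 5 were well above background on both arrays with a summed intensity of 279206 untreated and 266677 after IL-4. Sums here add intensities that were not scaled between arrays, and they rest largely on the brightest probes. On the untreated array Csf1r alone read 146026 and the stromal marker Col1a2 233342. The sums are therefore no measure of the share of a cell type. The macrophage marker Csf1r had a difference of 0.09 and Adgre1 (F4/80) one of 0.17, while Itgam (CD11b) was at -0.71, Lyz2 at -0.70 and Mertk at -1.14. The 3 probes of Csf1r ran from -0.11 to 0.09 and the 3 of Itgam from -0.71 to -0.24. All 6 fibroblast or stromal markers were well above background on both arrays, with a summed intensity of 317477 and 309956 and a median difference of -0.06, with members on both sides of 0. Pdgfra at 0.51 and Lum at 0.52 were higher in each of the 8 scaling and background settings, Pdgfrb at -0.47 and Col1a1 at -0.34 were lower in each, and Col1a2 was at -0.09. The endothelial markers Pecam1, Cdh5, Kdr, Tie1 and Emcn were well above background on both arrays and Tek on neither, with a summed intensity over all 6 of 3609.9 untreated and 4064 after IL-4. Of these Pecam1 had a difference of 0.61 and the other 4 lay between -0.10 and 0.08 at the brightest probe, while the other probe of Kdr was at -0.54. Neutrophil markers were well above background on both arrays for 5 of 5 matched genes, summing to 36602 and 35676, lymphocyte markers for 2 of 6, Cd3e and Cd4, with sums over all 6 of 915.9 and 878.4, and eosinophil markers for 3 of 4, with sums over all 4 of 925.0 and 1122. Among neutrophil markers, Mpo at 0.30 was higher and Camp at -0.61 lower in each of the 8 settings. S100a8 was at -0.17, S100a9 at -0.10 and Elane at -0.23. The eosinophil marker Siglecf was at -0.02 and Prg2, with an intensity of 79.6 untreated and 110.2 after IL-4, at 0.37. Ear1, an eosinophil-associated ribonuclease, had an intensity of 66.5 without and 186.8 with IL-4 and was 2.62-fold higher. Prg2 and Ear1 were higher in each of the 8 settings, but both were dim on the untreated array. In the setting that lowered each most, the log2 difference was 0.05 for Prg2 and 0.68 for Ear1, against 1.39 as reported for Ear1. The part of these cells in the receptor signals was not tested.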

How the data were processed

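Cy3-labelled RNA of BMDMs was hybridised to 1 Agilent array per condition, and arrays were mapped to conditions from the sample labels. The deposited scanner files, made with Feature Extraction 10.10.1.1, give each spot an intensity from which the software had removed background and spatial trend, without scaling between arrays, and other columns of flags and errors. The authors also deposited processed log2 values, whose scaling is not given in the sources used here beyond default settings of the software. These equalled the scanner log2 differences of the receptor probes to within 0.00056.

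Control spots and spots flagged as outliers on either array were left out, repeat spots were averaged per probe on the log2 scale, and values were set relative to the 75th percentile, 9.84 untreated and 9.94 IL-4. A gene was read from its brightest probe. Targets without a gene name were each kept as a gene in counts over all genes. A probe well above background on 1 array only gave a bound, for which the dim array was given its lowest detected signal or, if higher, the measured one. On the 2 arrays 59.8% and 57.4% of gene spots were well above background. Names came from RefSeq tables of GRCm38.p6, whereas the array was designed on mm9. The members and lists were chosen with earlier results of these data known. Named were all receptors, SMADs and co-receptors well above background and pathway genes past 2-fold. Other pathway and marker genes were named with their values known. Counting was tested on simulated data. Alternatives were other scalings, normexp with offset 50 on median pixel intensity, the processed values, other filters, probe rules and cutoffs. Python 3.11.15, pandas 2.3.3, numpy 2.4.6, R 4.3.3 and limma 3.58.1 were used. No p-value is given.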

Additional observations from a re-analysis of the deposited data

How the results depend on the processing

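With 1 array per condition the number of arrays limits the precision, and no replicate could be left out. No paired analysis was possible because a single array stands for each condition. A difference counts as moved when it changed by more than the SD between spots. The number of receptors at least 2-fold higher or lower stayed at 0 under the 13 alternatives that keep this fold and with a fold of 3, and with a fold of 1.5 it was 1 lower and 0 higher. The median of the receptors, -0.01, moved to 0.20 with scaling on the median, 0.080 with quantile normalization, 0.11 with cyclic loess, 0.31 with spike-in scaling, -0.074 with normexp and 0.086 without scaling. The scalings on the median and on spike-in controls and no scaling move all genes together by their construction. For the other settings the cause was not tested. Of 130 values of single receptors under alternatives, 41 moved and 89 did not, and none reached 2-fold. Many of the 89 could not move. The filters on dim probes left every value as it was, since all receptors were detected on both arrays. Keeping flagged spots and using the processed values shifted all receptors by a tiny constant. The probe rules could change only receptors with more than 1 probe. The 89 are therefore no measure of robustness. Genes past 2-fold numbered 564 higher and 883 lower of 19743 as reported, 1011 and 454 with spike-in scaling, and 295 and 266 with normexp. They numbered 848 and 1645 with the processed values. Without a filter on dim probes they numbered 1389 and 4074 of 32448, and among genes detected in both conditions 363 and 270 of 17242. Lower genes also numbered 564 with scaling on the median, 533 with quantile normalization, 1683 with the median over probes and 1736 with the mean over detected probes. The counts with the processed values, without a filter and with both probe rules set no bound for probes detected on 1 array only. They are therefore not on the same footing as the reported counts. Low signal limits Acvr1b and Acvr2a, whose SD between spots was 0.17 and 0.19 against at most 0.091 for the probes of the other receptors.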

Other observations

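The ligands and secreted inhibitors of the family were read on the same arrays. Of 12 ligand genes, 10 were well above background on both arrays, Gdf11 on the untreated array only and Bmp7 on neither. Bmp6 was the 1 ligand past 2-fold, with an intensity of 61.2 untreated and 30.3 after IL-4, near the lowest detected intensity. Its log2 difference of -1.11 had an error of 0.37 and went to -0.55 in the setting that moved it most. Of all genes, 4.47% of those detected in either condition and 1.57% of those measured on both arrays were 2-fold lower. A single dim gene is no finding about the ligands. The ligands measured on both arrays had a median of -0.18, with 6 of 10 lower. Of the TGF-β isoforms Tgfb1, printed in 10 spots, was at 0.30, Tgfb2 at -0.35 and Tgfb3 at -0.30. The activin subunit Inhba was at -0.45 and Inhbb at 0.01. Bmp2 at 0.49 was the highest ligand, Bmp4 was at 0.24 and Gdf3 at -0.41. Tgfb1, Bmp2 and Bmp4 were higher in each of the 8 scaling and background settings. Tgfb2, Inhba and Gdf3 were lower in each, and Tgfb3 was lower in 7. Gdf15 had an intensity of 2655 untreated and 2728 after IL-4. Its log2 difference of -0.06 had an error of 0.20, and it was higher in 3 settings and lower in 5. The study reports that IL-4 induced Gdf15 in murine macrophages by transcriptome, and in BMDMs by real-time PCR and as secreted protein. The 1 Gdf15 probe on this single pair of arrays did not show such a rise under the reported scaling. It measures neither protein nor replicate cultures, and the IL-4 dose on the arrays is not given. All 8 secreted inhibitors were well above background on both arrays, with a median of -0.22 that became 0.10 with spike-in scaling, and none differed 2-fold. The lowest was the BMP antagonist Chrd at -0.68 and the highest the activin antagonist Fst at 0.19, both named after their values were seen.

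Gfral, which encodes the receptor for GDF15 in the hindbrain, was flagged well above background on the untreated array only, at an intensity of 31.7 against the lowest such intensity of 29.2. Its co-receptor Ret had an intensity of 283.7 untreated and 380.0 after IL-4 and a difference of 0.32 with an error of 0.21.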
